A study of Mus musculus with 15 samples.

Results

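The genes described here make, sense, move and clear cholesterol. They are 32 mouse genes, found by matching a list of symbols to the Ensembl identifiers of the count table, and they are 32 of its 43352 rows. All 32 passed the filter on low counts, which 19645 genes passed. The list holds 7 enzymes of the mevalonate steps, 11 enzymes of the squalene and sterol steps, 4 genes of SREBP2 control, 3 genes of transport inside the cell, 5 genes of the liver X receptors (LXR) and efflux, and 2 genes of uptake and esterification.

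Perivascular adipose tissue (PVAT), the fat that sheathes the aorta, was taken from mice at 11 weeks of age for bulk RNA-seq. The groups were 4 thoracic (tPVAT) libraries of Prdm16flox, AdipoQCre+ mice (cKO), 4 tPVAT libraries of Prdm16flox mice (controls), 3 abdominal (aPVAT) libraries of cKO mice (numbers 1, 3 and 4) and 4 aPVAT libraries of control mice. Controls and cKO mice alike had a floxed Prdm16 gene. The cKO mice added an AdipoQCre transgene, whose Cre follows Adipoq, a gene of mature adipocytes, so that other cells of the fat pad were not targeted. Prdm16 encodes a transcriptional regulator of brown and beige adipocytes. The labels give neither the sex of the mice, nor the deleted exon, nor whether same-numbered libraries share a mouse. They also do not say that each library is a separate animal, so the p-values measure the spread between these libraries.

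Cholesterol is built from acetyl-CoA: the mevalonate steps make isoprenoid units, which are joined to squalene, closed into lanosterol and trimmed to cholesterol. The transcription factor SREBP2 turns on the genes of this path. When sterol in the endoplasmic reticulum is low, SCAP carries SREBP2 to the Golgi for cleavage, and when sterol is plentiful, INSIG proteins hold SCAP back. LXRs respond to oxidised sterols and induce genes that export cholesterol and limit its uptake. Adipocytes hold much of their cholesterol unesterified, in membranes and at the surface of lipid droplets.

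Total counts per library ran from 37761133 to 68735385. The targeted gene Prdm16 had 21.2 to 23.8 CPM (counts scaled to a common library size by TMM) in the 4 tPVAT cKO libraries, against 41.1 to 55.6 CPM in the 4 tPVAT controls, and 14.7 to 18.3 CPM in the 3 aPVAT cKO libraries, against 21.4 to 26.8 CPM in the 4 aPVAT controls. Its call in aPVAT (adjusted p = 0.00992, edgeR) was lost without aPVAT cKO 1 (0.0692) or aPVAT cKO 3 (0.0591). Transcripts of the mitochondrial genome took 29.9 ± 2.38% of counts in tPVAT cKO, 34.6 ± 1.28% in tPVAT controls, 13.5 ± 0.308% in aPVAT cKO and 14.4 ± 1.23% in aPVAT controls (SD, n = 4, 4, 3 and 4). Of 6 adipocyte markers, 3 were higher in tPVAT cKO and 0 in aPVAT cKO. Of 6 brown adipocyte markers, 1 was lower in tPVAT cKO and 4 in aPVAT cKO.

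The start regions of 4 sterol enzymes whose transcripts were higher in cKO fat of both depots are shown first. These genes had the smallest p-values of the genotype comparisons among the members whose start region was searched. Each is the RefSeq window on GRCm38.p6 from 250 bases before to 50 bases after the transcript start, written 5′ to 3′ on the strand of the gene. Capitals mark the box CCAAT bound by NF-Y, a partner of SREBP2, on either strand (ATTGG on the other one). Sc5d lies at chr9:42264251-42264550 (minus strand), Cyp51 at chr5:4104648-4104947 (minus), Msmo1 at chr8:64733529-64733828 (minus) and Nsdhl at chrX:72918271-72918570 (plus).
Sc5d: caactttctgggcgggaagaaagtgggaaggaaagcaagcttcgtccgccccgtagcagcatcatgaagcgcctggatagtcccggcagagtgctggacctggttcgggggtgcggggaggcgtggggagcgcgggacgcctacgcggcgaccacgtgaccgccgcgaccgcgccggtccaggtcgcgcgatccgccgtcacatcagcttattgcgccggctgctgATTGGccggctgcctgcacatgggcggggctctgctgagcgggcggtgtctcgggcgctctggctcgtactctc
Cyp51: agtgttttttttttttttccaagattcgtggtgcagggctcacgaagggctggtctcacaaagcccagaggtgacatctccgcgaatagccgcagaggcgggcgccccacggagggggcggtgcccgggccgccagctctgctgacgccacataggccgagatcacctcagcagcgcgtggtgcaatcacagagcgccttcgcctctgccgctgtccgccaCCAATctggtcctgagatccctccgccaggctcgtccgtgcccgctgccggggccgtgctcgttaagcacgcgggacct
Msmo1: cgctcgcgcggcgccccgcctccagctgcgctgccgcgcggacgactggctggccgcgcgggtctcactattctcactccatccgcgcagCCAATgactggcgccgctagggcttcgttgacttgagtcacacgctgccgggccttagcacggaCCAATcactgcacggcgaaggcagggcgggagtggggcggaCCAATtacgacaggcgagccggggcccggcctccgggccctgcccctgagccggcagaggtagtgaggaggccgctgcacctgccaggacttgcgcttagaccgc
Nsdhl: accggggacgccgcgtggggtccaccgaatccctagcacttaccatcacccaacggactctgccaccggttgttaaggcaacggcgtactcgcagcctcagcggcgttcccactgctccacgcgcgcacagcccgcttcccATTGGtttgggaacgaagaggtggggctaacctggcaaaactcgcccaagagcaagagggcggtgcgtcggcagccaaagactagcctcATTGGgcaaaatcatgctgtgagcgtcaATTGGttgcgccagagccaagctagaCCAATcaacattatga
Sc5d held 1 NF-Y box, 24 bases before the start, and Cyp51 1, 29 bases before it. Msmo1 held 3 boxes and Nsdhl 4. The windows next by p, not shown, were those of Scap, with 0 boxes, and Insig1, with 1. Scap was lower in tPVAT cKO. Tm7sf2, a sterol enzyme also higher in both depots, is not shown either.

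RefSeq windows were matched for 25 of the 32 genes, with 32 windows in all, 18 of them of synthesis enzymes. The NF-Y box CCAAT stood in 14 of the 18 synthesis windows and 20 of the 32, against 37.4% of all 32851 windows (38.2% of windows of protein-coding genes). The Sp1 box GGGCGG, searched on both strands, stood in 15 of the 18 and 25 of the 32, against 35.7% of all windows (46.2% of coding ones). The SREBP site TCACNCCAC stood in 1 window, that of Hmgcs1, as TCACCCCAC 137 bases before the start, and in 1.24% of all windows (1.19% of coding ones). The LXR site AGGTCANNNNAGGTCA stood in 0 of the 32 and in 0.0152% of all windows. These matches describe the letters of short windows and say nothing of binding.

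The genes of the path were measured over a wide range. Per kilobase of exon, which allows levels to be compared between genes, Insig1 had the highest level of the 32 in each of the 4 groups, at 222 CPM per kb in tPVAT cKO, 169 in tPVAT controls, 179.9 in aPVAT cKO and 125 in aPVAT controls. Soat1 had the lowest, at 0.739 CPM per kb in tPVAT cKO, 0.767 in tPVAT controls, 1.08 in aPVAT cKO and 1.22 in aPVAT controls. The 32 genes are drawn library by library in the heat map of levels.

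**Figure D1:**
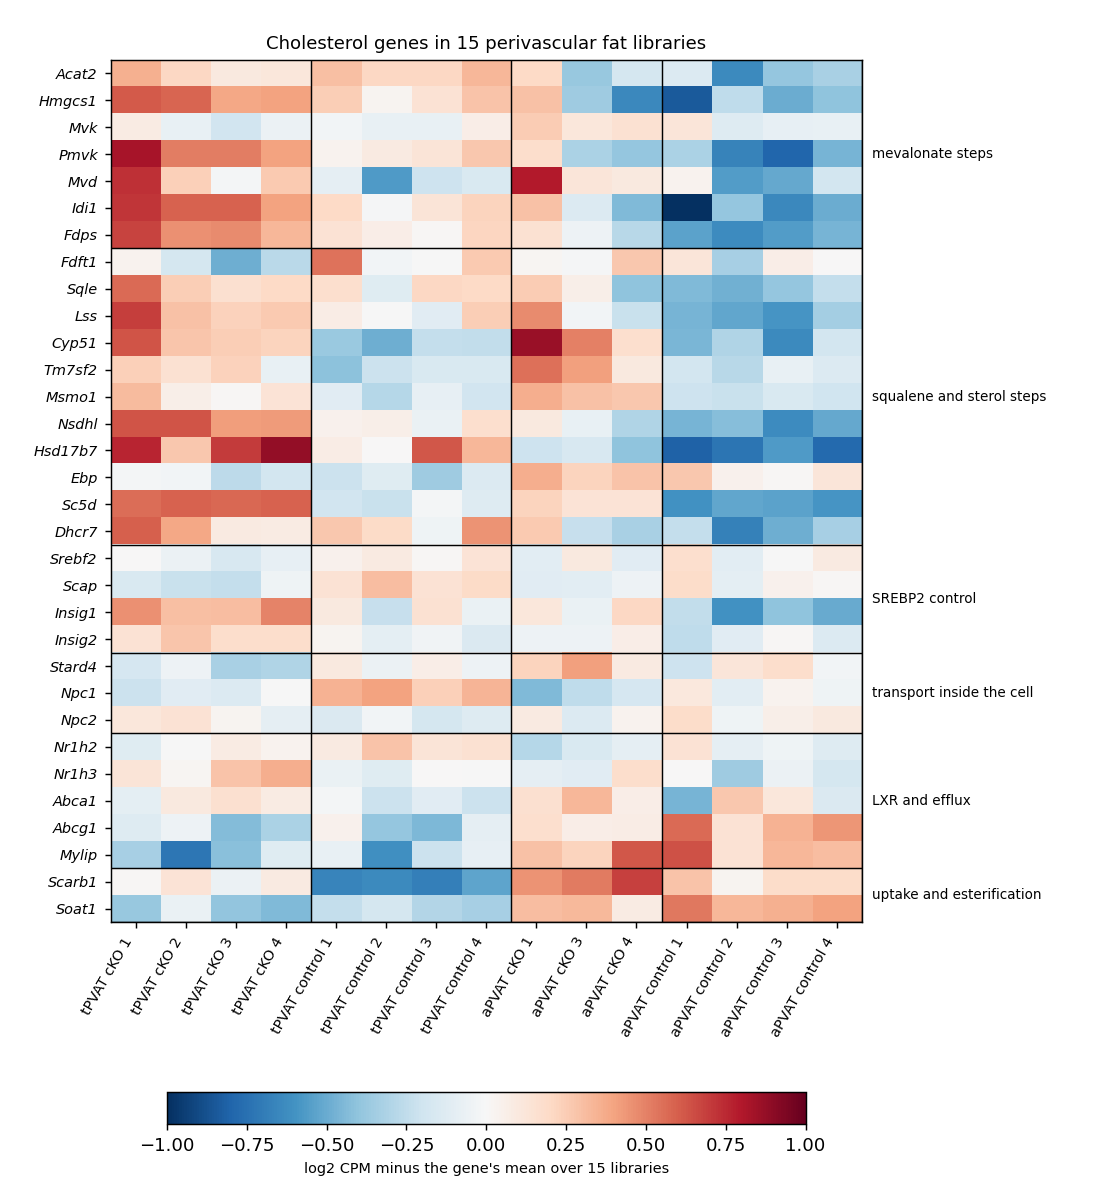
Level of 32 cholesterol genes (rows, in the order of their roles) in 15 libraries (columns, cKO left of control within each depot), as log2 CPM minus the gene's mean over the 15 libraries. Rows of the mevalonate and sterol steps are mostly red in tPVAT cKO and blue in aPVAT controls, and the rows of Scarb1 and Soat1 are red in aPVAT.

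In tPVAT, 7 of the 18 synthesis enzymes were higher in cKO mice and 11 did not pass. Of the 32 genes, 12 passed the test (edgeR's quasi-likelihood F test, Benjamini-Hochberg adjusted p under 0.05 over 19645 genes), 10 higher and 2 lower, against 12% of all genes tested, 5.44% higher and 6.61% lower. The 18 enzymes had 0 lower calls and a median log2 fold change of 0.35, against -0.01 over all genes. The groups of libraries did not overlap for 18 of the 32 genes, 14 higher and 4 lower in cKO, against 23.2% of all genes, 11% higher and 12.2% lower. Summed over the 18 enzymes, CPM was 1736.5, 1568.8, 1462.3 and 1465.3 in tPVAT cKO 1 to 4, against 1285.6, 1159.6, 1230.1 and 1330.8 in tPVAT controls 1 to 4. In bulk tissue a change in the share of a cell type and a change in RNA per cell cannot be told apart. The summed adipocyte markers also lay apart, at 15105 to 16188 CPM in tPVAT cKO, against 12417 to 13302 CPM in tPVAT controls. So did brown adipocyte markers (1 of 6 lower), at 5398.3 to 6599.7 CPM in tPVAT cKO, against 8499.5 to 9236.5 CPM in tPVAT controls, and endothelial markers (3 of 6 lower), at 667.55 to 688.93 CPM in tPVAT cKO, against 747.94 to 848.13 CPM in tPVAT controls. A list of 5 hepatocyte markers (2 higher, Cyp2e1 and Serpina1c) summed to 1389.2 to 1745.5 CPM in tPVAT cKO, against 546.66 to 573.33 CPM in tPVAT controls. Nearly all of that sum was Cyp2e1, and Alb reached at most 8.86 CPM. Of 5 heart muscle markers 2 were lower in tPVAT cKO, with overlapping sums of 47.0 to 140.49 CPM in tPVAT cKO and 133.58 to 188.9 CPM in tPVAT controls. The part of these cells in the result was not tested.

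In aPVAT, 8 of the 32 genes passed, 8 higher and 0 lower, against 1.53% of all genes, 0.743% higher and 0.789% lower. The synthesis enzymes held 6 of the 8, with a median log2 fold change of 0.44, against -0.01 over all genes. The libraries did not overlap for 13 genes, 11 higher and 2 lower in cKO, against 9.56% of all genes, 3.76% higher and 5.8% lower. Summed CPM of the 18 enzymes was 1461.3, 1134.8 and 1050.5 in aPVAT cKO 1, 3 and 4, against 881.02, 895.8, 866.76 and 933.97 in aPVAT controls 1 to 4. Adipocyte markers overlapped here, at 11584 to 15430 CPM in aPVAT cKO and 11527 to 14142 CPM in aPVAT controls. The count fell to 4 without aPVAT cKO 1, the library with the highest sum, and to 2 (Msmo1 and Sc5d) when the 7 aPVAT libraries were fitted alone. Structural RNA took 0.125% of counts in aPVAT cKO 4, which also had the lowest total, against 0.00616 and 0.0128% in the other aPVAT cKO libraries, and 0.0200% in aPVAT control 2, the next highest. Without these 2 libraries 9 genes passed, 6 of them among the 8, and Insig1 (adjusted p = 0.0918) and Scarb1 (0.0889, both edgeR) were lost. Summed brown adipocyte markers were 116.4 to 178.13 CPM in aPVAT cKO, against 670.32 to 1143 CPM in aPVAT controls. Summed macrophage markers overlapped, at 507.52 to 753.11 CPM in aPVAT cKO and 729.75 to 1002.2 CPM in aPVAT controls. Of these 10 markers 0 passed, with log2 fold changes of -0.76 to -0.13. The part of these cells in the result was not tested.

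**Figure D2:**
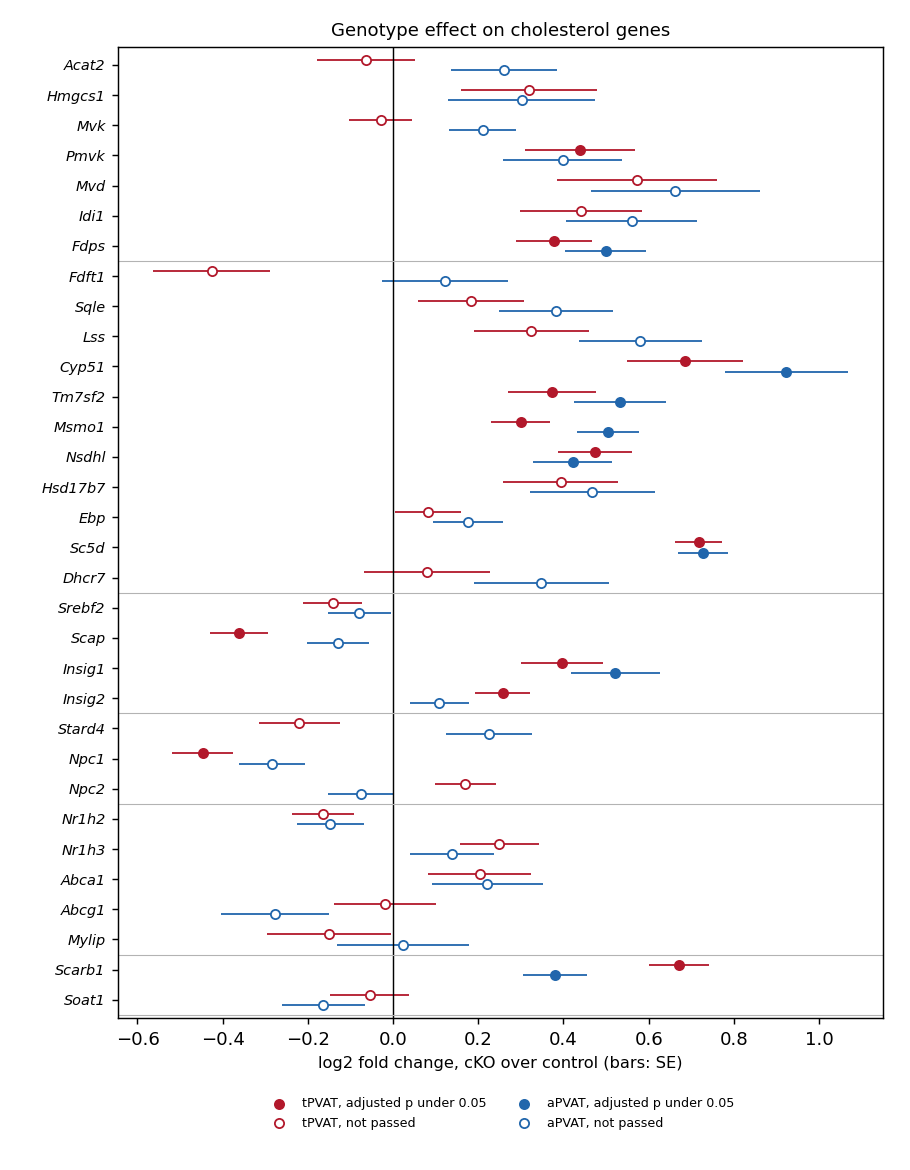
Log2 fold change of cKO over control for 32 cholesterol genes, in tPVAT (red) and aPVAT (blue), with bars of 1 SE and filled points where adjusted p was under 0.05 (edgeR). The synthesis enzymes at the top lie mostly right of 0 in both depots, and 12 points are filled in tPVAT and 8 in aPVAT.

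Of the 7 mevalonate enzymes, Fdps was higher in cKO mice of both depots and Pmvk in tPVAT. Fdps makes farnesyl pyrophosphate, the branch point to sterols, ubiquinone and prenylated proteins. Fdps had 51.1, 43.9, 44.4 and 40.4 CPM in tPVAT cKO, against 35.4, 33.5, 32.3 and 37.2 CPM in tPVAT controls (log2 fold change 0.38 ± 0.09 SE, adjusted p = 0.0111, edgeR). It had 35.6, 30.9 and 26.4 CPM in aPVAT cKO, against 22.1, 20.7, 21.7 and 23.3 CPM in aPVAT controls (0.50 ± 0.10, adjusted p = 0.0121, edgeR). The groups did not overlap in either depot, and leaving out aPVAT cKO 1 ended the aPVAT call (adjusted p = 0.093). Exons of Fdps share 1124 bases with the same-strand gene model Gm43738.

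Pmvk, the kinase that adds the second phosphate to mevalonate, had 134, 108, 108 and 100.3 CPM in tPVAT cKO, against 77.8, 80.8, 83.0 and 91.3 CPM in tPVAT controls. The groups were apart, with tPVAT cKO 1 the highest (log2 fold change 0.44 ± 0.13, adjusted p = 0.0367, edgeR). This call was lost without any of tPVAT cKO 1 (0.126), cKO 2 (0.0539), cKO 3 (0.0607), control 1 (0.0989), control 2 (0.0885) or control 3 (0.0764). In aPVAT its groups overlapped, with 85.9, 60.9 and 58.2 CPM in cKO and 43.7 to 61.0 CPM in controls (0.40 ± 0.14, adjusted p = 0.221, edgeR).

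The other 5 mevalonate genes did not pass in either depot. Idi1, the isomerase of isoprenoid units, had 112, 102, 103 and 90.4 CPM in tPVAT cKO, against 78.4, 67.6, 74.6 and 79.8 CPM in tPVAT controls (log2 fold change 0.44 ± 0.14, adjusted p = 0.0571, edgeR). Its libraries did not overlap, and its adjusted p fell below 0.05 without any of aPVAT control 1 (0.0214), aPVAT control 2 (0.046), aPVAT cKO 1 (0.0254) or aPVAT cKO 4 (0.0317), which are not in the contrast but share its estimate of the spread. In aPVAT Idi1 differed by 0.56 ± 0.15 (adjusted p = 0.0961, edgeR; 0.0287 without aPVAT cKO 4). Mvd, which makes isopentenyl pyrophosphate, differed by 0.57 ± 0.19 in tPVAT (adjusted p = 0.0609) and 0.66 ± 0.20 in aPVAT (adjusted p = 0.139, both edgeR). Mvd passed in tPVAT without aPVAT control 1 (0.0398), aPVAT cKO 1 (0.0328) or tPVAT cKO 3 (0.0418). With DESeq2 both passed in tPVAT and aPVAT, Mvd at 0.0209 and 0.0358 and Idi1 at 0.0255 and 0.0218. Mvd also passed in tPVAT and aPVAT with the replicate number as a block (0.0055 and 0.0286, edgeR). Hmgcs1, the cytosolic HMG-CoA synthase, had 411, 401, 351 and 354 CPM in tPVAT cKO, against 319, 273, 297 and 327 CPM in tPVAT controls. Its libraries were apart in tPVAT (0.32 ± 0.16, adjusted p = 0.223, edgeR), but in aPVAT they ran from 172 to 328 CPM in cKO and from 149.8 to 225 CPM in controls. Acat2, which joins acetyl-CoA units in the cytosol, and Mvk, the kinase before Pmvk, had log2 fold changes of -0.06 and -0.03 in tPVAT, and of 0.26 and 0.21 in aPVAT.

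Of the 11 squalene and sterol enzymes, 5 were higher in cKO mice of both depots: Cyp51, Tm7sf2, Msmo1, Nsdhl and Sc5d. Sc5d, the desaturase that places a double bond in the sterol ring late in the path, had 181, 185, 183 and 185 CPM in tPVAT cKO, against 108, 105, 121 and 112 CPM in tPVAT controls. In aPVAT it had 144, 135 and 135 CPM in cKO, against 80.9, 86.0, 85.1 and 81.6 CPM in controls. Within each depot every cKO library lay above every control, and libraries of a group were close to each other. Its log2 fold change was 0.72 ± 0.06 in tPVAT (adjusted p = 4.27e-07) and 0.73 ± 0.06 in aPVAT (adjusted p = 6.42e-06, both edgeR), the smallest p-values among the 32 genes in each depot.

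Cyp51, the cytochrome P450 that removes a methyl group from lanosterol, had the largest fold change of the 32 genes in aPVAT. It had 158, 124 and 98.1 CPM in aPVAT cKO, against 63.7, 70.8, 56.1 and 76.7 CPM in aPVAT controls (log2 fold change 0.92 ± 0.14, adjusted p = 0.00267, edgeR). In tPVAT it had 135, 106, 103 and 102 CPM in cKO, against 67.5, 62.2, 73.8 and 73.6 CPM in controls (0.69 ± 0.14, adjusted p = 0.00336, edgeR). No groups overlapped, and the cKO libraries numbered 1 were the highest of their depot. The aPVAT call was lost when the 7 aPVAT libraries were fitted alone (0.0712). Its exons share 166 bases with Akap9 on the opposite strand, whose log2 fold change was 0.25 ± 0.18 in tPVAT (adjusted p = 0.413, edgeR).

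Msmo1, which oxidises the methyl groups left on the ring, had 57.3, 54.6 and 53.7 CPM in aPVAT cKO, against 38.6, 38.1, 40.1 and 38.7 CPM in aPVAT controls (log2 fold change 0.51 ± 0.07, adjusted p = 0.00125, edgeR). It had 55.3, 46.2, 44.7 and 48.8 CPM in tPVAT cKO, against 41.0, 36.5, 42.1 and 39.0 CPM in tPVAT controls (0.30 ± 0.07, adjusted p = 0.0088, edgeR). The libraries did not overlap in either depot. Nsdhl, the dehydrogenase that follows it on the sterol, had 125, 125, 108 and 109 CPM in tPVAT cKO, against 83.6, 84.4, 77.4 and 90.9 CPM in tPVAT controls (0.47 ± 0.09, adjusted p = 0.00178, edgeR). In aPVAT Nsdhl had 86.7, 76.9 and 65.7 CPM in cKO, against 58.7, 60.4, 52.4 and 56.9 CPM in controls (0.42 ± 0.09, adjusted p = 0.0292, edgeR). Again no groups overlapped, but this aPVAT call was lost without aPVAT cKO 1 (0.182), cKO 3 (0.0881), control 3 (0.0804) or control 4 (0.0723).

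Tm7sf2, a sterol reductase, was the lowest of these enzymes per kilobase, at 2.33 CPM per kb in tPVAT cKO and 1.80 in tPVAT controls. It had 11.0, 10.3, 10.9 and 8.84 CPM in tPVAT cKO, against 7.002, 7.98, 8.36 and 8.35 CPM in tPVAT controls (log2 fold change 0.37 ± 0.10, adjusted p = 0.026, edgeR). It had 13.6, 12.3 and 9.91 CPM in aPVAT cKO, against 8.16, 7.68, 8.80 and 8.46 CPM in aPVAT controls (0.53 ± 0.11, adjusted p = 0.0173, edgeR). Its libraries did not overlap. The tPVAT call was lost without tPVAT cKO 1 (0.0777), cKO 2 (0.0546), cKO 3 (0.074), control 1 (0.0857) or control 2 (0.0572), and the aPVAT call without aPVAT cKO 1 (0.129) or cKO 3 (0.071). Its exons share 532 bases with Vps51 on the same strand, which had log2 fold changes of -0.08 and -0.07 in tPVAT and aPVAT and did not pass.

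The remaining 6 sterol enzymes did not pass in either depot. Fdft1, squalene synthase and the enzyme that commits the path to sterols, was the 1 synthesis enzyme with a fold change well below 0. It had 72.9, 63.0, 50.7 and 59.0 CPM in tPVAT cKO, against 104, 69.9, 71.2 and 85.5 CPM in tPVAT controls (log2 fold change -0.43 ± 0.14, adjusted p = 0.0558, edgeR), and the groups overlapped. In aPVAT it differed by 0.12 ± 0.15. It passed in tPVAT, lower in cKO, with DESeq2 (0.0202), and in edgeR without tPVAT cKO 1 (0.0359), tPVAT control 2 (0.0427), tPVAT control 3 (0.047), aPVAT control 1 (0.0446) or aPVAT control 2 (0.0362). Its exons share 774 bases with Ctsb on the opposite strand, a lysosomal protease gene at 1175 CPM in tPVAT cKO and 1201 CPM in tPVAT controls, and the strand setting of the counting is not given in the sources used here.

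Lss, which closes squalene epoxide into lanosterol, had 64.0, 45.3 and 39.7 CPM in aPVAT cKO, against 33.5, 32.3, 30.8 and 36.4 CPM in aPVAT controls. The groups were apart, yet the test was missed (log2 fold change 0.58 ± 0.14, adjusted p = 0.0606, edgeR). Without aPVAT cKO 4 or tPVAT cKO 1 the adjusted p was 0.0234 or 0.0411, and with DESeq2 it was 0.00704. In tPVAT the log2 fold changes of Lss and Hsd17b7 were 0.32 ± 0.13 and 0.39 ± 0.14. Hsd17b7 passed there without tPVAT control 3 (0.0174) or tPVAT cKO 2 (0.0187), and with DESeq2 (0.0451). Hsd17b7, a sterol ketone reductase, had 16.7, 17.2 and 14.5 CPM in aPVAT cKO, against 11.0 to 12.97 CPM in aPVAT controls (0.47 ± 0.15, adjusted p = 0.164, edgeR). Sqle, the squalene epoxidase, differed by 0.18 ± 0.12 in tPVAT and 0.38 ± 0.13 in aPVAT (adjusted p = 0.0375 there without aPVAT cKO 4, edgeR), Dhcr7, the last reductase of the path, by 0.08 ± 0.15 and 0.35 ± 0.16, and the isomerase gene Ebp by 0.08 ± 0.08 and 0.18 ± 0.08.

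**Figure D3:**
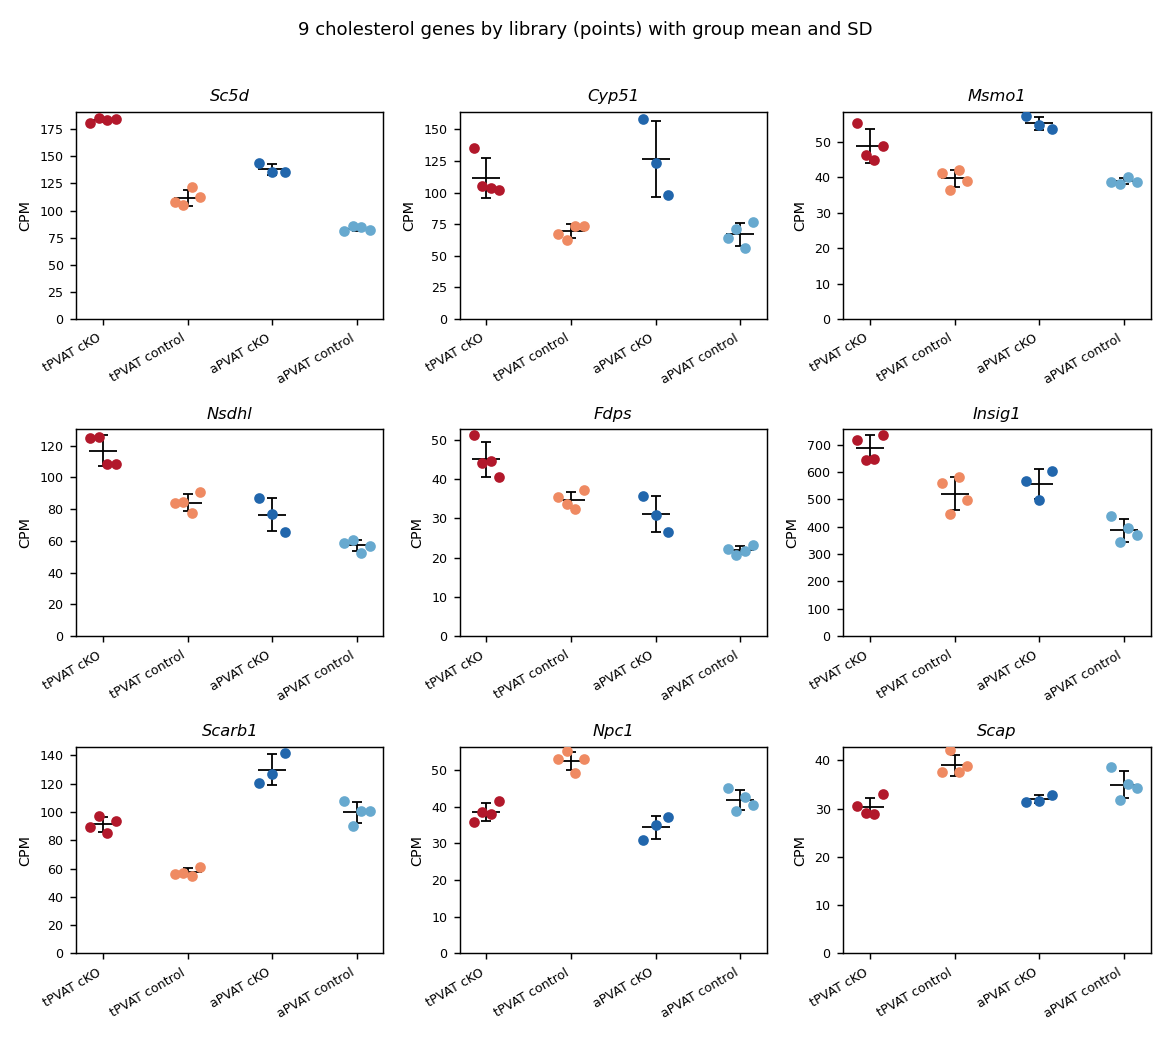
CPM of 9 cholesterol genes in each library (points), with the mean and SD of each group (black lines), in 4 tPVAT cKO, 4 tPVAT control, 3 aPVAT cKO and 4 aPVAT control libraries. Sc5d, Cyp51, Msmo1, Nsdhl, Fdps, Insig1 and Scarb1 lie higher in cKO than in controls of the same depot, and Npc1 and Scap lie lower in tPVAT cKO than in tPVAT controls.

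The 4 genes of SREBP2 control did not move together. Insig1, itself a known target of SREBP, had 719, 646, 647 and 736 CPM in tPVAT cKO, against 559.5, 447, 581 and 499 CPM in tPVAT controls (log2 fold change 0.40 ± 0.10, adjusted p = 0.0134, edgeR). It had 566, 499 and 604 CPM in aPVAT cKO, against 440.2, 343, 396 and 370.0 CPM in aPVAT controls (0.52 ± 0.10, adjusted p = 0.0154, edgeR). In both depots all cKO libraries lay above all controls. Leaving out aPVAT cKO 1 ended the aPVAT call (0.0738), as did leaving out cKO 4 (0.0849) or control 4 (0.0512).

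Insig2, the second protein that retains SCAP, had 38.3, 41.8, 39.2 and 39.1 CPM in tPVAT cKO, against 35.2, 32.3, 33.8 and 31.3 CPM in tPVAT controls. These groups were apart (log2 fold change 0.26 ± 0.06, adjusted p = 0.0156, edgeR), and the call was lost without tPVAT control 4 (0.0566). Scap, the escort of SREBP2, went the other way, with 30.6, 29.2, 28.8 and 33.0 CPM in tPVAT cKO, against 37.5, 42.2, 37.6 and 38.8 CPM in tPVAT controls. Every tPVAT cKO library lay below every tPVAT control (-0.36 ± 0.07, adjusted p = 0.00241, edgeR). In aPVAT the log2 fold changes of Insig2 and Scap were 0.11 ± 0.07 and -0.13 ± 0.07, and neither passed. Srebf2, which encodes SREBP2, did not pass in either depot, with 64.9 ± 3.06 CPM in tPVAT cKO and 71.6 ± 2.66 CPM in tPVAT controls (SD, n = 4 each; -0.14 ± 0.07, adjusted p = 0.213, edgeR).

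Of the 3 transport genes, Npc1 was lower in tPVAT cKO. Npc1 encodes the membrane protein that exports cholesterol from lysosomes. It had 35.9, 38.6, 37.998 and 41.7 CPM in tPVAT cKO, against 53.0, 55.1, 49.1 and 52.8 CPM in tPVAT controls, with no overlap (log2 fold change -0.45 ± 0.07, adjusted p = 0.000633, edgeR). In aPVAT its groups were also apart, at 30.8, 35.0 and 37.2 CPM in cKO and 44.9, 38.8, 42.7 and 40.5 CPM in controls, but the test was missed (-0.28 ± 0.08, adjusted p = 0.0949, edgeR; 0.0256 with DESeq2). Its partner Npc2, the soluble carrier in the lysosome, had log2 fold changes of 0.17 ± 0.07 in tPVAT and -0.08 ± 0.08 in aPVAT, and Stard4, a cytosolic sterol carrier, of -0.22 ± 0.10 and 0.23 ± 0.10. Neither passed in either depot. Npc1 shares 511 exon bases with Rmc1 on the opposite strand, whose log2 fold change was -0.03 in tPVAT.

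None of the 5 LXR and efflux genes passed in either genotype comparison (0 of 5 in each). In tPVAT 2 of them, Nr1h2 and Nr1h3, had an unadjusted p under 0.05 in edgeR, and in aPVAT 1, Abcg1. Nr1h3, which encodes LXR alpha, had 80.1, 74.0, 89.0 and 93.9 CPM in tPVAT cKO, against 69.8, 67.3, 73.4 and 72.9 CPM in tPVAT controls (log2 fold change 0.25 ± 0.09, adjusted p = 0.093, edgeR). Its tPVAT groups were apart, and the adjusted p was 0.0366 without tPVAT cKO 2. Nr1h2, which encodes LXR beta, differed by -0.17 ± 0.07 in tPVAT and -0.15 ± 0.08 in aPVAT. The exporter genes Abca1 and Abcg1 differed by 0.20 ± 0.12 and -0.02 ± 0.12 in tPVAT, and by 0.22 ± 0.13 and -0.28 ± 0.13 in aPVAT. Mylip, a ubiquitin ligase that LXR induces and that removes lipoprotein receptors, differed by -0.15 ± 0.15 in tPVAT and 0.02 ± 0.15 in aPVAT.

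Scarb1, the receptor for high-density lipoprotein that takes up cholesteryl ester, was higher in cKO mice of both depots. It had 89.1, 96.9, 85.0 and 93.8 CPM in tPVAT cKO, against 56.1, 57.0, 54.9 and 61.2 CPM in tPVAT controls (log2 fold change 0.67 ± 0.07, adjusted p = 1.09e-05, edgeR). It had 120.4, 127 and 142 CPM in aPVAT cKO, against 108, 90.1, 100.3 and 100.5 CPM in aPVAT controls (0.38 ± 0.08, adjusted p = 0.0152, edgeR). No groups overlapped, and leaving out aPVAT cKO 4 ended the aPVAT call (0.0956). Markers of adrenal cortex, a tissue rich in this receptor, were low. Their sum moved the same way, but single markers did not all do so. The 7 markers summed to 6.49 to 9.07 CPM in tPVAT cKO, against 4.29 to 5.70 CPM in tPVAT controls, and to 8.13 to 11.0 CPM in aPVAT cKO, against 6.24 to 6.99 CPM in aPVAT controls. Log2 fold changes of the 4 that were tested ran from -0.85 to 1.34 in tPVAT and from -0.48 to 0.67 in aPVAT. Of these, Mc2r was higher in tPVAT cKO and 0 passed in aPVAT, and Hsd3b1 was at 0 in all 8 tPVAT libraries. Their part in the result was not tested. Soat1, the enzyme that esterifies cholesterol, had 7.23 ± 0.915 CPM in tPVAT cKO and 7.51 ± 0.364 CPM in tPVAT controls (SD, n = 4 each). In aPVAT its groups were apart, lower in cKO, but it did not pass (-0.16 ± 0.10, adjusted p = 0.516, edgeR), nor did it in tPVAT.

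The genotype comparisons of the depots share no libraries, but they share an estimate of the spread. The labels do not say whether same-numbered libraries share a mouse, so the depots are not known to be independent. Over the 32 genes, log2 CPM minus the group mean correlated across depots at 0.734, 0.369 and 0.67 in same-numbered cKO libraries. In same-numbered controls it correlated at 0.062, 0.072, 0.284 and 0.599. A pair of unlike numbers reached 0.793 (aPVAT control 4 and aPVAT cKO 1). All 8 genes called higher in aPVAT were also called higher in tPVAT, which is 100% of the 8 and 80% of the 10 called higher in tPVAT. Over all genes 128 were called higher in both, 87.7% of the 146 called higher in aPVAT and 12% of the 1069 called higher in tPVAT. Pmvk and Insig2, called in tPVAT alone among the genes that were higher, were not shown to differ between depots. In the test of the difference itself (the aPVAT effect minus the tPVAT effect) 0 of the 32 genes passed in edgeR, with 6 at an unadjusted p under 0.05, and 0 passed in DESeq2. Over all genes 0.784% passed this test, 0.158% with a higher and 0.626% with a lower effect in aPVAT. The difference was 0.01 on the log2 scale for Sc5d (95% interval -0.16 to 0.18), 0.24 for Cyp51 (-0.18 to 0.66) and -0.29 for Scarb1 (-0.51 to -0.07, adjusted p = 0.352, edgeR). The smallest p of the 32 was that of Stard4, at 0.45 (0.15 to 0.74, adjusted p = 0.236, edgeR).

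The share of the 32 genes that differed between depots was near that of all genes. In controls, 20 of the 32 differed between aPVAT and tPVAT, 6 higher and 14 lower in aPVAT, against 56.6% of all genes, 29.3% higher and 27.3% lower. The 18 synthesis enzymes held 11 of the lower calls and 1 higher call (Ebp), with a median log2 fold change of -0.52, against 0.04 over all genes. The libraries did not overlap for 18 genes, 5 higher and 13 lower in aPVAT, against 49.5% of all genes, 25.4% higher and 24.1% lower. In cKO mice 16 genes differed, 7 higher and 9 lower in aPVAT, against 52.6% of all genes, 27.2% higher and 25.4% lower. There the enzymes held 7 lower and 2 higher calls (Mvk and Ebp), with a median of -0.30, against 0.04 over all genes. Libraries of cKO mice did not overlap for 16 genes, 7 higher and 9 lower, against 55% of all genes, 27.4% higher and 27.5% lower. Each of these comparisons shares its libraries with the genotype comparisons.

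**Figure D4:**
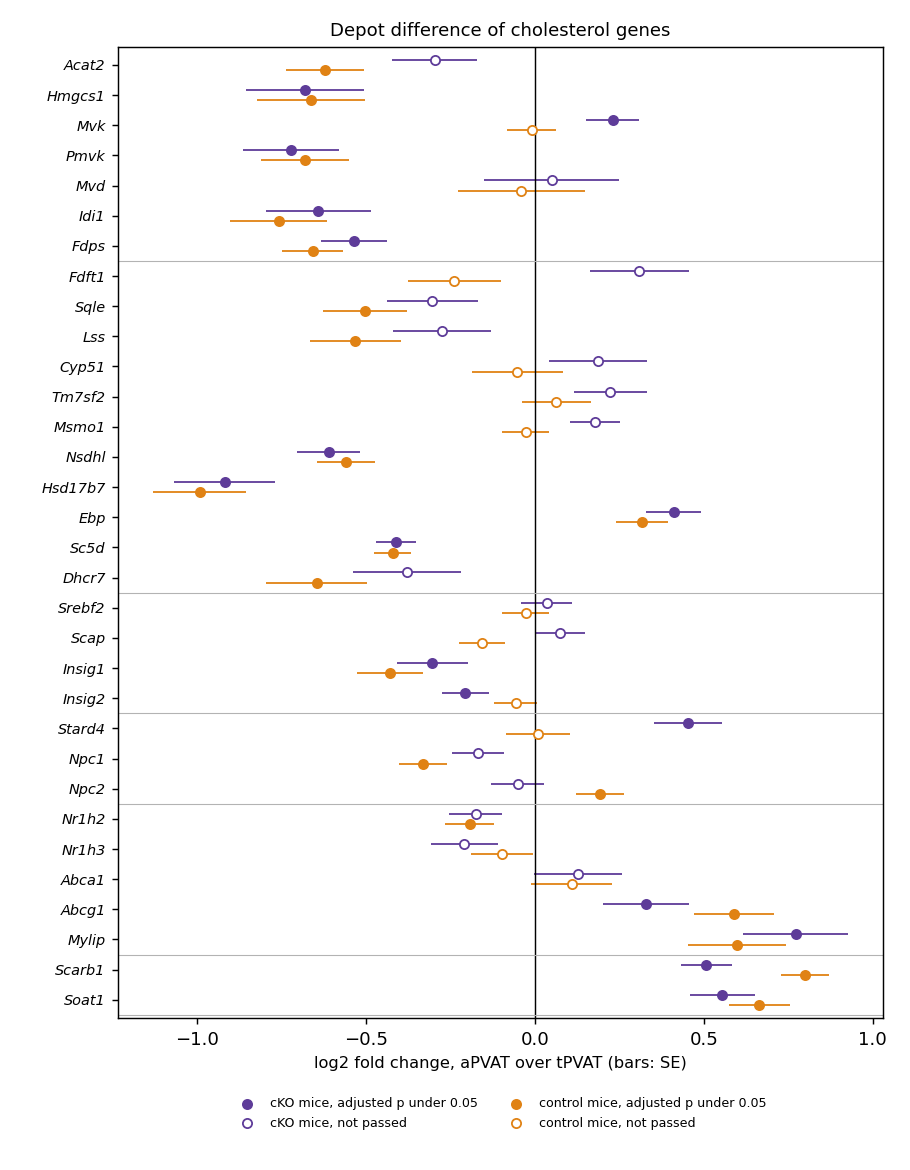
Log2 fold change of aPVAT over tPVAT for 32 cholesterol genes, in cKO mice (purple) and control mice (orange), with bars of 1 SE and filled points where adjusted p was under 0.05 (edgeR). Hsd17b7 lies farthest left in both genotypes, and Scarb1, Soat1, Mylip and Abcg1 lie right of 0 in both.

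Hsd17b7 had the largest depot difference of the enzymes. It had 16.7, 17.2 and 14.5 CPM in aPVAT cKO, against 32.5, 23.2, 31.2 and 35.4 CPM in tPVAT cKO (log2 fold change -0.92 ± 0.15, adjusted p = 0.000102, edgeR). In controls it had 11.0, 11.6, 12.97 and 11.2 CPM in aPVAT, against 20.2, 19.2, 29.5 and 24.2 CPM in tPVAT (-0.99 ± 0.14, adjusted p = 1.6e-05, edgeR). No aPVAT library reached a tPVAT library of its genotype. Hmgcs1, Pmvk, Idi1, Fdps, Nsdhl and Sc5d were also lower in aPVAT in both genotypes, with log2 fold changes of -0.41 to -0.72 in cKO and -0.42 to -0.76 in controls. Acat2, Sqle, Lss and Dhcr7 were called lower in aPVAT in controls, at -0.62, -0.50, -0.53 and -0.65, and did not pass in cKO, at -0.30, -0.30, -0.28 and -0.38. Without aPVAT cKO 1 all 4 passed in cKO (adjusted p = 0.00445, 0.0161, 0.0057 and 0.00843, edgeR). Acat2 also passed without aPVAT control 1 (0.0384) or 2 (0.0369), and Dhcr7 without tPVAT cKO 3 (0.0425) or 4 (0.0411). Tm7sf2, Msmo1, Mvd, Cyp51 and Fdft1 passed in neither genotype. Of these, 3 passed in cKO, higher in aPVAT, with a library left out: Tm7sf2 without aPVAT cKO 4 (0.0155), Fdft1 without tPVAT cKO 1 (0.0393), and Msmo1 without tPVAT cKO 1 (0.00779), aPVAT control 1 (0.0451) or tPVAT control 2 (0.0473).

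Brown adipocyte markers ran the same way as these enzymes: all 6 were lower in aPVAT in both genotypes, with summed levels of 116.4 to 178.13 CPM in aPVAT cKO, against 5398.3 to 6599.7 CPM in tPVAT cKO, and 670.32 to 1143 CPM in aPVAT controls, against 8499.5 to 9236.5 CPM in tPVAT controls. Their part in the result was not tested. Insig1 was lower in aPVAT in both genotypes, at -0.30 ± 0.11 in cKO and -0.43 ± 0.10 in controls, and leaving out aPVAT cKO 3 (adjusted p = 0.116), tPVAT cKO 1 (0.0563) or tPVAT cKO 4 (0.0641, all edgeR) ended the cKO call. Npc1 was lower in aPVAT of controls (-0.33 ± 0.07, adjusted p = 0.000908, edgeR), as was Rmc1, which overlaps it (-0.26 ± 0.07, adjusted p = 0.00383, edgeR). In cKO mice Npc1 differed by -0.17 ± 0.08 (adjusted p = 0.0801, edgeR; 0.0386 without aPVAT cKO 4).

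The genes called higher in aPVAT in both genotypes were Scarb1, Soat1, Mylip, Abcg1 and the enzyme Ebp. Scarb1 was higher by 0.51 ± 0.08 in cKO mice (adjusted p = 4.3e-05) and by 0.80 ± 0.07 in controls (adjusted p = 1.24e-07, both edgeR). Of 4 adrenal cortex markers tested, 2 were higher and 0 lower in aPVAT in each genotype. Log2 fold changes ran from -0.62 to 4.86 in cKO and from -0.62 to 4.20 in controls. The 7 markers summed to 8.13 to 11.0 CPM in aPVAT cKO, against 6.49 to 9.07 CPM in tPVAT cKO. In controls they summed to 6.24 to 6.99 CPM in aPVAT, against 4.29 to 5.70 CPM in tPVAT. Their part in the result was not tested. Soat1 had 11.1, 11.2 and 9.50 CPM in aPVAT cKO, against 6.90, 8.59, 6.82 and 6.62 CPM in tPVAT cKO, and 12.96, 11.3, 11.5 and 11.9 CPM in aPVAT controls, against 7.64, 7.96, 7.33 and 7.13 CPM in tPVAT controls, with no overlap (0.56 ± 0.10 and 0.66 ± 0.09). Mylip was higher by 0.77 ± 0.15 in cKO and 0.60 ± 0.14 in controls, and Abcg1 by 0.33 ± 0.13 and 0.59 ± 0.12. The Abcg1 call in cKO (adjusted p = 0.0399, edgeR) was lost without aPVAT cKO 1 (0.117), cKO 3 (0.0681) or cKO 4 (0.0673), or tPVAT cKO 3 (0.112) or cKO 4 (0.0914). Stard4 was called in cKO alone (0.45 ± 0.10, against 0.01 ± 0.09 in controls), and the difference between these did not pass (adjusted p = 0.236, edgeR).

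Markers of macrophages, cells rich in Abcg1, Soat1 and Npc2, moved the same way as Abcg1 and Soat1. Npc2 was called higher in aPVAT of controls only, and differed by -0.05 in cKO (adjusted p = 0.598, edgeR). All 10 macrophage markers were higher in aPVAT of controls and 8 of 10 in cKO, with summed levels of 507.52 to 753.11 CPM in aPVAT cKO, against 365.45 to 482.78 CPM in tPVAT cKO, and 729.75 to 1002.2 CPM in aPVAT controls, against 420.75 to 475.41 CPM in tPVAT controls. Markers of other cells were also higher in aPVAT. Of 6 endothelial markers 5 were higher and 0 lower in cKO, and 4 were higher and 1 lower in controls. Of 6 lymphocyte markers 2 were higher in cKO and 5 in controls, with 0 lower in each. The part of these cells in the result was not tested. None of the 10 macrophage markers passed in either genotype comparison (0 of 10 in each, edgeR). In aPVAT all 10 nevertheless had log2 fold changes below 0, from -0.76 to -0.13 (median -0.49). In tPVAT they ran from -0.23 to 0.18 (median -0.04). Npc2 and Nr1h2 had the weakest depot calls in controls, at 0.19 ± 0.07 (adjusted p = 0.0299) and -0.19 ± 0.07 (adjusted p = 0.033, both edgeR). The Npc2 call was lost without aPVAT control 1 (0.0753) or 4 (0.0611), or tPVAT control 1 (0.0671), 3 (0.0797) or 4 (0.0602), and the Nr1h2 call without aPVAT control 2 (0.0731), 3 (0.0663) or 4 (0.102), or tPVAT control 2 (0.108) or 4 (0.0514). In cKO, Insig2 (-0.21 ± 0.07, adjusted p = 0.021) and Mvk (0.23 ± 0.08, adjusted p = 0.0225, both edgeR) were called. The Insig2 call was lost without aPVAT cKO 1 (0.0718) or 3 (0.073) or tPVAT cKO 2 (0.054), and the Mvk call without aPVAT cKO 1 (0.104) or tPVAT cKO 3 (0.0712). Abca1, Nr1h3, Srebf2 and Scap passed in neither genotype. With a library left out, 3 more calls, all lower in aPVAT, appeared: Nr1h3 in cKO without aPVAT cKO 4 (0.0271) or tPVAT cKO 2 (0.0259), Nr1h2 in cKO without tPVAT cKO 1 (0.0454) or aPVAT control 1 (0.0369), and Scap in controls without aPVAT control 1 (0.0107) or tPVAT cKO 2 (0.0271).

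A further list of 41 cholesterol genes, covering branches of the mevalonate path, SREBP processing, lipoprotein uptake, sterol transport, HDL and oxysterols, gave a background for the path, and 40 of them were tested. In tPVAT cKO 3 were higher and 2 lower, and in aPVAT cKO 1 was higher and 3 lower, with median log2 fold changes of 0.01 and -0.04. Over all genes 5.44% were higher and 6.61% lower in tPVAT cKO, a share like that of these genes, and 0.743% were higher and 0.789% lower in aPVAT cKO. Lpcat3, an LXR target that remodels phospholipids, was higher in tPVAT cKO (128 ± 7.17 CPM, against 95.01 ± 6.49 CPM in tPVAT controls; SD, n = 4 each; log2 fold change 0.43 ± 0.07, adjusted p = 0.000519, edgeR). In aPVAT its call (0.31 ± 0.07, adjusted p = 0.0379, edgeR) was lost without any 1 of 9 libraries, and most widely without aPVAT cKO 1 (0.207). Smpdl3a, a secreted phosphodiesterase, was listed with Lpcat3 among 6 genes under LXR targets, efflux and HDL. Of these 6, 1 was higher and 1 lower in cKO of each depot. Smpdl3a was lower in tPVAT cKO, at 98.9 ± 4.02 CPM, against 127 ± 3.32 CPM in tPVAT controls (-0.36 ± 0.06, adjusted p = 0.000991, edgeR). Its aPVAT call (-0.31 ± 0.07, adjusted p = 0.0243, edgeR) was lost without aPVAT cKO 1 (0.127), cKO 3 (0.0742), cKO 4 (0.0534) or control 3 (0.0532). Gramd1a and Stard5, which encode sterol carriers, were higher in tPVAT cKO (0.30 ± 0.07, adjusted p = 0.0141, and 0.34 ± 0.10, adjusted p = 0.0359, edgeR). The Stard5 call was lost without any of the tPVAT libraries but cKO 2 (0.0542 to 0.107).

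Lrp1, a large endocytic receptor for lipoprotein remnants, was lower in cKO mice of both depots, with 368 ± 18.3 CPM in tPVAT cKO and 457 ± 22.2 CPM in tPVAT controls, and 422 ± 59.2 CPM in aPVAT cKO and 572 ± 70.8 CPM in aPVAT controls (SD, n = 4, 4, 3 and 4). Neither Lrp1 call was firm: the tPVAT adjusted p of 0.0396 became 0.0535 to 0.11 without any of the tPVAT libraries but cKO 2, and the aPVAT adjusted p of 0.0408 was lost without any 1 of 11 libraries, and reached 0.197 without aPVAT cKO 1 (edgeR). Cyp27a1, which makes an oxysterol that activates LXR, had 16.03 ± 0.232 CPM in aPVAT cKO and 21.6 ± 1.59 CPM in aPVAT controls (log2 fold change -0.43 ± 0.10, adjusted p = 0.0479, edgeR). This call was lost without any 1 of 10 libraries (0.0634 to 0.146, the highest without aPVAT cKO 1). In tPVAT it had 27.5 ± 3.43 CPM in cKO and 23.9 ± 2.65 CPM in controls (0.20 ± 0.09, adjusted p = 0.191, edgeR). The difference between these effects, -0.63 ± 0.14, passed narrowly (adjusted p = 0.0473, edgeR), and was lost without any 1 of 12 libraries (0.0644 to 0.116).

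Between depots 29 of these 40 genes differed in controls, 13 higher and 16 lower in aPVAT, and 24 in cKO, 9 higher and 15 lower, against 56.6% of all genes in controls and 52.6% in cKO. Among the smallest p-values were Pdss1, which builds the tail of ubiquinone from farnesyl pyrophosphate, Vldlr, a lipoprotein receptor, and Lipa, the lysosomal lipase that frees cholesterol from its esters. Pdss1 had 3.73 ± 0.273 CPM in aPVAT cKO and 10.3 ± 0.17 CPM in tPVAT cKO (SD, n = 3 and 4), and 3.88 ± 0.23 CPM in aPVAT controls and 11.1 ± 0.657 CPM in tPVAT controls (n = 4 each). Vldlr had 55.7 ± 1.71 CPM in aPVAT cKO and 165 ± 15.7 CPM in tPVAT cKO, and 69.2 ± 4.05 CPM in aPVAT controls and 170.3 ± 18.1 CPM in tPVAT controls. Log2 fold changes of the 3 genes ran from -1.46 to -1.57 in cKO and from -1.28 to -1.52 in controls (adjusted p at most 2.72e-08, edgeR).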

How the data were processed

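Polyadenylated RNA of snap-frozen PVAT was sequenced with a stranded kit, per the labels' protocols. The deposited table holds counts of reads per gene that the authors made, 1 column per library. The submitters' processing notes name Salmon, Subread and DESeq2 1.42.1 and the build mm10; the counting tool, its annotation and its strand option were not given in the sources used here. Symbols came from a GENCODE annotation on GRCm38, which named 97.9% of the 43352 identifiers. The filterByExpr step of edgeR (minimum count 10) kept 19645 genes, which held 99.98% of counts. Counts were scaled by TMM and fitted with edgeR 4.0.16 (quasi-likelihood F test, R 4.3.3) with a mean for each of 4 groups over 15 libraries, and p-values were adjusted by Benjamini-Hochberg over all genes tested. SE is the log2 fold change over the root of F. Total counts ran from 37761133 to 68735385 per library.

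The members and lists were chosen with earlier results of these data known. All 32 members are named, and of the further genes at most 4 per comparison, by smallest p among those past 0.05. With group means taken off, same-numbered libraries were not correlated over 0.1 in every pair, over all genes or over the 32. Numbers were therefore not treated as pairs. The alternatives were DESeq2 1.42.0, limma 3.58.1 (voom with library weights), RLE size factors, no filter, no mitochondrial genes, a block, only the groups compared, and leaving out libraries. The model was tested on simulated data. An aPVAT cKO library numbered 2 was not analysed here.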

Additional observations from a re-analysis of the deposited data

Results flagged for a closer look

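In 4 of the 96 groups of 4 libraries (32 genes in 3 groups), 1 library stood apart from the other 3 by Dixon's test at 95%; chance flags about 1 in 20 groups. Lss had 74.41 CPM in tPVAT cKO 1, against 54.29 to 56.67 CPM in the other tPVAT cKO libraries. Cyp51 had 135 CPM in tPVAT cKO 1, and 101.7 to 105.5 CPM in the others. Soat1 had 8.594 CPM in tPVAT cKO 2, and 6.616 to 6.899 CPM in the others. Sqle had 33.52 CPM in tPVAT control 2, below the 40.91 to 41.89 CPM of the other tPVAT controls.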

How the results depend on the processing

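No comparison of a member or a named further gene changed sign while called, in any setting run. Of 5148 recomputed values, 4864 kept their direction and side of the threshold, 114 newly passed, 159 no longer passed and 11 moved otherwise. In tPVAT the number of members called, 12, became 19 with limma voom weights and 19 with only the 8 tPVAT libraries, and the 2367 genes became 4080 and 3726. In aPVAT the 8 members became 2 and the 301 genes 92 with only the 7 aPVAT libraries, and 604 genes were called with DESeq2. The 154 genes whose genotype effect differed between depots became 350 with DESeq2. The cause was not tested. Leaving out 1 library at a time gave 10 to 15 members in tPVAT, 4 to 9 in aPVAT, 18 to 21 between depots in controls and 13 to 19 in cKO, with 1708 to 3273 genes in tPVAT, 161 to 398 in aPVAT and 114 to 189 for the difference between depots. Correlations between libraries were taken on log2 CPM minus each gene's group mean, so they are not correlations of levels. Over all genes, those of same-numbered libraries ran from -0.03 to 0.165 across depots (1 of 7 pairs over 0.1) and from -0.222 to 0.169 across genotypes (3 of 7). Over the 32 genes they ran from 0.062 to 0.734 across depots (5 of 7), and from -0.693 to 0.525 across genotypes. The 3 cKO pairs had 0.734, 0.369 and 0.67, a hint from the data and not from the design. A pair of unlike numbers reached 0.793 (aPVAT control 4 and aPVAT cKO 1). The labels do not state a pairing. With the replicate number as a block, 15 members were called in tPVAT, 9 in aPVAT, 19 and 20 between depots in controls and cKO, and 0 for the difference. With a block of genotype and number, 19, 21 and 0 were called in these last comparisons, and Acat2 (adjusted p = 0.0182), Sqle (0.0181), Lss (0.00563) and Dhcr7 (0.0102) passed between depots in cKO, as did Acat2 (0.00929), Sqle (0.0375) and Dhcr7 (0.0212) with the number block.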
